A study of Homo sapiens with 6 samples.

Results

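Transcripts of the autophagy machinery and its cargo receptors were followed in Huh-7 cells, an established human hepatoma line, treated with pectolinarigenin, a plant flavone. The set holds 36 listed genes, matched by gene symbol in a table of 60605 gene entries. Every one of the 36 was found, none of them in more than 1 entry, and 34 were expressed highly enough to be tested. The tested group was given 100 µM pectolinarigenin for 24 h, in 3 libraries. The control group received DMSO, that is 0 µM, for the same 24 h, also in 3 libraries. Cells of both groups had first taken up oleic acid, given at 100 µM for 24 h to fill them with lipid, and were starved before the treatment, so every comparison is between lipid-loaded, starved cells. Cells without oleic acid were not analysed here. The question was what the compound does to transcript levels in these cells. Separate cultures for the libraries of 1 group are not stated in the labels. P-values therefore reflect the scatter among libraries of 1 cell line, and that scatter may be technical.

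Macroautophagy encloses cytoplasm in a double membrane that fuses with the lysosome. The ULK kinase complex starts the process, a class III phosphatidylinositol 3-kinase complex marks the membrane, and phospholipid-binding and lipid-transfer proteins let it grow. A ubiquitin-like conjugation system then attaches ATG8 proteins (the LC3 and GABARAP families) to phosphatidylethanolamine, and cargo receptors hold ubiquitinated cargo to those ATG8 proteins. In liver cells autophagy is also known to deliver lipid droplets to lysosomes. The values here are RNA levels: protein amounts, ATG8 lipidation and autophagic flux were not measured.

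Library totals were 15140022 to 20311261 counts, so that 3 counts in a library equal 0.148 to 0.198 CPM (counts relative to the library total). All 12 hepatoma markers were at 1 FPKM or more in every library, where FPKM is the count scaled by gene length and library total. Their summed level was 9186 to 9993 FPKM in the pectolinarigenin libraries and 12726 to 12945 FPKM in the control libraries. Most of it was ALB (mean 3530 FPKM with pectolinarigenin, 5475 FPKM in controls) and AFP (3919 and 4815 FPKM). FOXA2 alone had a higher mean with pectolinarigenin (42.5 FPKM, 39.0 FPKM in controls), and the groups of APOA1 and APOB overlapped. Of 11 markers of leukocytes, endothelium and fibroblasts, 8 were under 0.5 FPKM in every library, COL1A2 and DCN among them listed at 0 FPKM throughout. LYZ (lysozyme), CD14 and PECAM1 were at 1 FPKM or more in all 6 libraries, and they did not go the same way. The summed level of the 11 was 56.1 to 80.0 FPKM with pectolinarigenin and 45.5 to 46.0 FPKM in controls, most of it LYZ, which had 63.91, 52.60 and 76.54 FPKM with pectolinarigenin and 39.31, 39.77 and 39.77 FPKM in controls. CD14 had 1.89 to 2.06 FPKM with pectolinarigenin and 2.64 to 3.45 FPKM in controls, and PECAM1 had 1.15 to 1.35 FPKM with pectolinarigenin and 2.28 to 2.61 FPKM in controls. The lower-level fibroblast markers COL1A1 (0.07 to 0.08 FPKM with pectolinarigenin, 0.20 to 0.21 FPKM in controls) and PDGFRB (0.03 to 0.06 FPKM with pectolinarigenin, 0.14 to 0.29 FPKM in controls) also had treated values below the control values. PTPRC did not exceed 0.01 FPKM in any library and VWF did not exceed 0.03 FPKM. In bulk RNA, fewer cells of a kind and less RNA per cell cannot be told apart. The part of these differences in the results below was not tested.

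More of the autophagy genes were higher than lower with pectolinarigenin, mostly by small amounts, and the cargo receptor SQSTM1 (p62) moved most. Of the 34 tested genes, 17 were higher with pectolinarigenin, 4 were lower and 13 did not pass the test (edgeR quasi-likelihood test, Benjamini-Hochberg adjusted p under 0.05 over all 12829 tested genes). The 21 that passed were 61.8% of those tested, where 50.6% of all 12829 genes passed. The 17 higher genes were 50% of the 34, where 25.3% of all tested genes were called higher. The 4 lower ones were 11.8%, where 25.3% of all tested genes were called lower. The FPKM values of the groups did not overlap for 20 of the 34 in the higher direction, or 58.8%, against 33.5% of all tested genes. They did not overlap for 5 in the lower direction, or 14.7%, against 25.4% of all tested genes, and for the other 9 the groups overlapped.

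The median log2 fold change of the 34 was 0.17, with a range of -0.34 to 1.15, where the median of all tested genes was 0.00071 and their middle 50% lay between -0.25 and 0.24. Among genes that passed, the median absolute log2 fold change was 0.33 for the autophagy genes and 0.40 for all called genes. SQSTM1 was the 1 autophagy gene that was called and at least 2-fold higher, and 1.96% of all tested genes were called and at least 2-fold higher. None of the 34 was called and at least 2-fold lower. Of the 21 calls, 13 held under all of the alternative analyses that tested the gene, and 8 were lost under at least 1 of the 17.

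**Figure D1:**
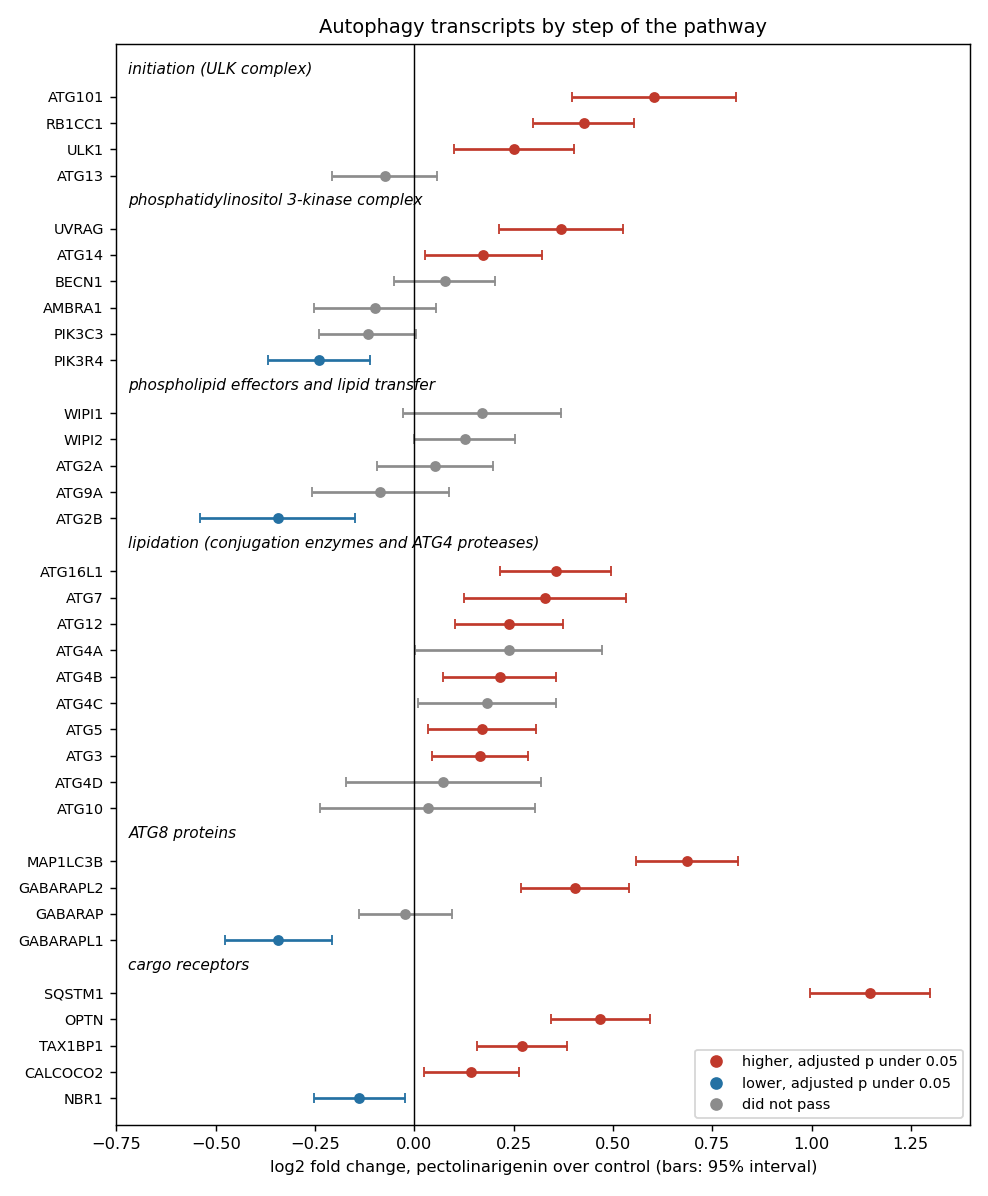
Log2 fold change (pectolinarigenin over control) of the 34 tested autophagy genes by role, with 95% confidence intervals from the edgeR quasi-likelihood fit over 3 libraries per group. SQSTM1 stands at 1.15 and MAP1LC3B at 0.69, while ATG2B and GABARAPL1 lie lowest, both at -0.34.

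The initiating ULK complex, which relays starvation and energy signals to the autophagosome formation site, had 3 of its 4 tested genes higher, none lower, and a median log2 fold change of 0.34. For this and each role below, the share of all tested genes was 25.3% called higher and 25.3% called lower. ATG101 (ENSG00000123395, GRCh38 chr12:52069246-52077494), the HORMA-domain subunit that stabilises ATG13, was at 6.57, 7.43 and 7.92 FPKM with pectolinarigenin and 4.35, 4.80 and 4.96 FPKM in controls. Its 3 treated libraries were all above its 3 control libraries, and it was 1.52-fold higher (log2 fold change 0.60, SE 0.097, edgeR adjusted p = 0.000116). RB1CC1 (FIP200, ENSG00000023287), the large scaffold of the complex, had 14.02, 13.33 and 13.21 FPKM with pectolinarigenin and 10.36, 9.29 and 9.74 FPKM in controls. The groups were again apart, with a log2 fold change of 0.43 (SE 0.059, edgeR adjusted p = 3.32e-05).

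ULK1 (ENSG00000177169, chr12:131894651-131923167), the catalytic kinase, had 10.20, 10.21 and 9.01 FPKM with pectolinarigenin and 7.23, 8.37 and 8.49 FPKM in controls. Its groups did not overlap, though the lowest treated library lay close to the highest control (log2 fold change 0.25, SE 0.071, edgeR adjusted p = 0.0085). Without control replicate 1, its lowest library, the edgeR adjusted p of ULK1 was 0.0568. ATG13, the adaptor between the kinase and the scaffold, was at -0.07 (95% interval -0.21 to 0.06, edgeR adjusted p = 0.336). ULK2, the second kinase, was below the expression filter and not tested. It had 26, 16 and 20 counts with pectolinarigenin and 49, 40 and 40 counts in controls, at most 0.27 FPKM in any library. With no filter on low values it was lower by edgeR (log2 fold change -1.07, SE 0.26, adjusted p = 0.000297), and with edgeR's filterByExpr at -1.08 (adjusted p = 0.00261), opposite to ULK1 and on far fewer counts.

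The phosphatidylinositol 3-kinase complex, which makes the lipid that recruits later autophagy proteins, moved in both directions. Of its 6 genes 2 were higher, 1 was lower and 3 did not pass, with a median log2 fold change of -0.012. UVRAG (ENSG00000198382, chr11:75815167-76143195), the subunit of the endosomal and maturation form of the complex, had 4.90, 4.86 and 4.39 FPKM with pectolinarigenin and 3.60, 3.46 and 3.61 FPKM in controls. All of its treated libraries were above its controls (log2 fold change 0.37, SE 0.073, edgeR adjusted p = 0.000706). PIK3R4 (VPS15, ENSG00000196455, chr3:130678935-130746829), the regulatory subunit bound to the lipid kinase, had 11.61, 11.15 and 10.75 FPKM with pectolinarigenin and 13.44, 12.46 and 12.59 FPKM in controls. Here every treated library was below every control, and the log2 fold change was -0.24 (SE 0.060, edgeR adjusted p = 0.00379).

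ATG14 (ENSG00000126775, chr14:55366392-55411858), the subunit that directs the kinase to autophagosome formation, had 9.57, 9.67 and 9.33 FPKM with pectolinarigenin and 8.39, 8.67 and 7.56 FPKM in controls. The groups did not overlap, but the call was near the threshold: log2 fold change 0.17, SE 0.069, edgeR adjusted p = 0.0471. It held in 9 of 17 alternatives, in which the adjusted p ran from 0.0188 to 0.236, the highest without control replicate 3. It was also lost without pectolinarigenin replicate 1 (0.0733), pectolinarigenin replicate 2 (0.0982) or control replicate 1 (0.0716). PIK3R4, which was lower, is a core member that every form of the complex shares, and the other core members did not pass by edgeR. BECN1, the scaffold, was at 0.08 (95% interval -0.05 to 0.20, adjusted p = 0.306). PIK3C3 (VPS34), the lipid kinase itself, was at -0.12 (-0.24 to 0.004, adjusted p = 0.0998). AMBRA1, a regulator of BECN1 and ULK1, was at -0.10 (-0.25 to 0.05, edgeR adjusted p = 0.266).

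Among the phospholipid effectors and lipid-transfer proteins, ATG2B was lower and the other 4 did not pass, with a median log2 fold change of 0.052. ATG2B (ENSG00000066739, chr14:96279202-96363870), one of a pair of bridge-like proteins that carry lipids into the growing membrane, had 6.58, 5.63 and 4.69 FPKM with pectolinarigenin and 7.45, 6.73 and 6.64 FPKM in controls. The groups did not overlap, and the treated libraries were spread more widely than the controls (5.63 ± 0.95 FPKM with pectolinarigenin and 6.94 ± 0.44 FPKM in controls, SD, n = 3 each). Its log2 fold change was -0.34 (SE 0.092, edgeR adjusted p = 0.00569), and -0.23 without pectolinarigenin replicate 3, with the call kept. In limma on log2(FPKM + 1) and on log2(FPKM + 0.1) the adjusted p was 0.0662 and 0.0677. Its paralog ATG2A was at 0.05 (95% interval -0.09 to 0.20, edgeR adjusted p = 0.554). Whether the 2 paralogs differ in response was not tested.

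WIPI1 and WIPI2 bind the lipid made by the kinase complex, and ATG9A is the scramblase of the vesicles that seed the membrane. WIPI1 was at 0.17 (95% interval -0.03 to 0.37, edgeR adjusted p = 0.141) and passed without pectolinarigenin replicate 3 (log2 fold change 0.25, adjusted p = 0.0184). WIPI1 shares 828 bases, or 24.3%, of its exons with ARSG on the other strand, which was lower by edgeR (log2 fold change -0.42, SE 0.11, adjusted p = 0.00365). The strand setting of the counting is not given in the sources used here, so reads from such shared bases cannot be told apart. WIPI2 was at 0.13 (edgeR adjusted p = 0.0888) and ATG9A at -0.09 (edgeR adjusted p = 0.396).

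All 10 genes of the lipidation step, the conjugation enzymes and the ATG4 proteases that process ATG8 proteins, had positive log2 fold changes, from 0.034 to 0.36, with a median of 0.20. Positive values were held by 6421 of all 12829 tested genes. Of the 10 genes, 6 passed the test, all higher, and 4 did not, where 25.3% of all tested genes were called higher. ATG10 turned to -0.046 without control replicate 3 (edgeR adjusted p = 0.815). ATG16L1 (ENSG00000085978, chr2:233210051-233295674), which places the conjugation complex on the membrane, had 7.5, 7.9 and 7.39 FPKM with pectolinarigenin and 5.67, 5.97 and 5.7 FPKM in controls. Its groups were well apart, with a log2 fold change of 0.36 (SE 0.066, edgeR adjusted p = 0.000377).

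ATG12 (ENSG00000145782, chr5:115828200-115841858), the ubiquitin-like protein joined to ATG5, had 5.25, 5.34 and 5.50 FPKM with pectolinarigenin and 4.46, 4.41 and 4.42 FPKM in controls. The spread within each group was far smaller than the gap between them, and the log2 fold change was 0.24 (SE 0.064, edgeR adjusted p = 0.00572). ATG7 (ENSG00000197548, chr3:11272309-11557665), the E1-like enzyme that activates both ATG12 and the ATG8 proteins, had 1.97, 1.80 and 1.71 FPKM with pectolinarigenin and 1.34, 1.43 and 1.47 FPKM in controls. The groups did not overlap and the log2 fold change was 0.33 (SE 0.096, edgeR adjusted p = 0.0101). ATG7 shares 1596 bases, or 18.1%, of its exons with VGLL4 on the other strand, which was lower (log2 fold change -0.23, SE 0.091, edgeR adjusted p = 0.0455). Neighbours on the other strand that share 151 to 374 exon bases with ATG3, ATG4B, ATG4D and ATG10 were higher by edgeR. SLC35A5 (ATG3) was at 0.38 (adjusted p = 0.00107) and THAP4 (ATG4B) at 0.50 (8.18e-05). KRI1 (ATG4D) was at 0.29 (0.0029) and RPS23 (ATG10) at 0.21 (0.0138). AP3S1, which shares 378 bases with ATG12, did not pass (0.15, edgeR adjusted p = 0.175). The part of reads from such neighbours in these lipidation values was not tested.

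The E2-like enzyme ATG3 was higher by 0.17 on the log2 scale (SE 0.057, edgeR adjusted p = 0.0244) and ATG5, the partner of ATG12, also by 0.17 (SE 0.064, edgeR adjusted p = 0.0360). The ATG3 call held in 14 of 17 alternatives and was lost without pectolinarigenin replicate 2 (adjusted p = 0.0516), control replicate 1 (0.0992) or control replicate 2 (0.0668). The ATG5 call held in 10 of 17 and was lost when pectolinarigenin replicate 2 (edgeR adjusted p = 0.0791) or 3 (0.0708) or control replicate 1 (0.0573), 2 (0.112) or 3 (0.114) was left out. Of the proteases, ATG4B was higher (log2 fold change 0.22, SE 0.067, edgeR adjusted p = 0.0145; without control replicate 3, 0.0878). ATG4A was at 0.24 (edgeR adjusted p = 0.0878) and ATG4C at 0.18 (0.0743), both with groups that did not overlap in FPKM. Among the other genes that did not pass, the FPKM groups of WIPI2 did not overlap in the higher direction. Those of PIK3C3 did not overlap in the lower direction. ATG4D was at 0.07 (edgeR adjusted p = 0.626), and ATG10, the E2-like enzyme that joins ATG12 to ATG5, at 0.03 (0.844) on 92 to 148 counts per library.

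Promoter windows were taken from RefSeq (GRCh38.p14, 250 bases before to 50 bases after each annotated start), which held 40 windows for 32 of the 36 genes and none for RB1CC1, UVRAG, ATG4D and MAP1LC3A. The 250 bases before the start, 5′ to 3′ on the strand of the gene, are shown for the 3 ATG8 genes and the receptor with the widest movement, since these carry the results that follow. Capitals mark the 1 motif match found among them.
MAP1LC3B, chr16:87392086-87392335, plus strand: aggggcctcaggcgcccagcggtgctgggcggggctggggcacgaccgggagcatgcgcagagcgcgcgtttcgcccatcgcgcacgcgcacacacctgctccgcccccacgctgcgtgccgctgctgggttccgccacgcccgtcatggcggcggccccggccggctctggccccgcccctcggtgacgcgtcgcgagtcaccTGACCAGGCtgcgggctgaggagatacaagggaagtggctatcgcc
GABARAPL2, chr16:75566129-75566378, plus strand: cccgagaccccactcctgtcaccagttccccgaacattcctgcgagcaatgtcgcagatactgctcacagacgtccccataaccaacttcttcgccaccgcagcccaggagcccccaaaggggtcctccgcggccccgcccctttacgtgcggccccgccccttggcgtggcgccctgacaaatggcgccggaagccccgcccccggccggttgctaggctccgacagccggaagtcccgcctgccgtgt
GABARAPL1, chr12:10212627-10212876, plus strand: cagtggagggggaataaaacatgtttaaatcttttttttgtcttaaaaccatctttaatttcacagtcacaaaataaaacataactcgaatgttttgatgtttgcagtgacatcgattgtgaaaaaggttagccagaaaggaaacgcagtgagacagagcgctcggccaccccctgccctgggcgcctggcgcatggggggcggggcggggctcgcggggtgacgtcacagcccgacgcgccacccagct
SQSTM1, chr5:179820655-179820904, plus strand: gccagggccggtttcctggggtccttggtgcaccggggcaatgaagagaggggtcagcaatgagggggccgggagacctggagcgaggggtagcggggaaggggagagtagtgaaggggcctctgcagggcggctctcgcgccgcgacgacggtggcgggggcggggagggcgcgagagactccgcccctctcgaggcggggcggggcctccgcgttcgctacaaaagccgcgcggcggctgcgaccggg

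SQSTM1 has 3 windows in the table, and the one shown is nearest to the starts of all 4 of its basic GENCODE 29 transcripts. The shown stretches of MAP1LC3B, GABARAPL2 and SQSTM1 are GC-rich, with 74.8%, 68.4% and 73.6% GC and 33, 24 and 29 CpG dinucleotides. That of GABARAPL1 has 51.6% GC and 15 CpG, where the median of all windows is 58.0% GC and 11 CpG. A relation of GC or CpG content to the direction of change was not tested. Motifs were searched on both strands of the full windows. CACGTG, the E-box core in the sites bound by TFEB and TFE3, was in 2 of the 40 windows (5.0%), those of ATG3 and ATG14, and in 7.26% of the 35116 windows of all genes. TGACNNNGC, the core of the antioxidant response element, was in 3 of 40 (7.5%), those of ATG101, MAP1LC3B and CALCOCO2, and in 13.3% of all windows. TGATGNAAN, the core of the C/EBP-ATF response element, was in 0 of 40 and in 3.61% of all windows. A match is a description of letters and not of binding.

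The ATG8 genes split, with MAP1LC3B and GABARAPL2 higher, GABARAPL1 lower and GABARAP near its control level. MAP1LC3B (ENSG00000140941, chr16:87383995-87404779), which encodes the LC3 protein most used as an autophagosome marker, had 16.69, 17.40 and 18.14 FPKM with pectolinarigenin and 10.52, 10.22 and 10.94 FPKM in controls. The lowest treated library was far above the highest control, and the gene was 1.61-fold higher (log2 fold change 0.69, 95% interval 0.56 to 0.81, SE 0.060, edgeR adjusted p = 4.56e-07). GABARAPL2 (GATE-16, ENSG00000034713, chr16:75566351-75577881) had 18.54, 18.14 and 19.35 FPKM with pectolinarigenin and 13.70, 13.41 and 14.20 FPKM in controls. Its groups were likewise apart, and it was 1.32-fold higher (log2 fold change 0.40, SE 0.064, edgeR adjusted p = 0.000101).

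GABARAPL1 (ENSG00000139112, chr12:10212458-10223130), a close relative of GABARAP, had 20.41, 22.72 and 20.50 FPKM with pectolinarigenin and 27.55, 24.60 and 26.42 FPKM in controls. Each treated library was below each control, and the log2 fold change was -0.34 (95% interval -0.48 to -0.21, SE 0.063, edgeR adjusted p = 0.000374), between -0.39 and -0.29 in the alternatives. GABARAP (ENSG00000170296, chr17:7240014-7242770), the most abundant of the 36 genes per length, had 42.17, 43.62 and 41.36 FPKM with pectolinarigenin and 42.56, 42.37 and 40.86 FPKM in controls. Its groups overlapped, with a log2 fold change of -0.023 (95% interval -0.14 to 0.09, edgeR adjusted p = 0.746) whose sign turned to 0.014 when libraries were scaled by their totals alone. MAP1LC3A had 2, 1 and 2 counts with pectolinarigenin and 1, 1 and 1 counts in controls, too few to compare.

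The coding sequences of GABARAP and GABARAPL1 are 76.6% identical, those of GABARAPL1 and GABARAPL2 62.8%, and those of MAP1LC3B and GABARAP 50.2%. A nearer copy exists for MAP1LC3B: MAP1LC3B2 matches its coding sequence at 373 of 375 bases, or 99.5%. How the authors' counting treated reads that match both is not given in the sources used here. MAP1LC3B2 had 68, 56 and 79 counts with pectolinarigenin and 60, 54 and 35 counts in controls, whereas MAP1LC3B had 1350, 1428 and 1856 counts with pectolinarigenin and 987, 960 and 834 counts in controls. MAP1LC3B also shares 150 exon bases, or 2.82%, with FBXO31 (log2 fold change 0.21, SE 0.081, edgeR adjusted p = 0.0411).

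**Figure D2:**
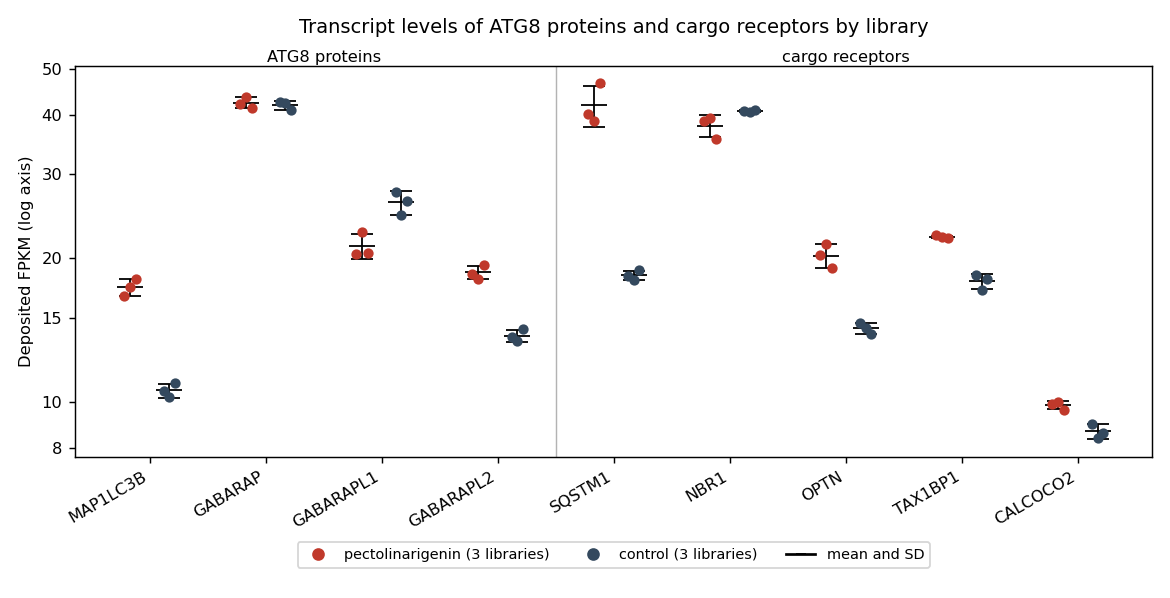
FPKM (log axis) of the ATG8 genes and cargo receptors in each of the 6 libraries, pectolinarigenin left of control, with horizontal lines at group means; MAP1LC3A, under 0.2 FPKM in every library, is left out. SQSTM1, OPTN, TAX1BP1, CALCOCO2, MAP1LC3B and GABARAPL2 show treated points wholly above control points, GABARAPL1 and NBR1 show them wholly below, and those of GABARAP overlap.

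The order of ATG8 levels in mean FPKM was the same with pectolinarigenin and in controls: GABARAP highest, then GABARAPL1, GABARAPL2 and MAP1LC3B. With pectolinarigenin the last of these neighbours met, since the highest MAP1LC3B library and the lowest GABARAPL2 library were both at 18.14 FPKM. The summed FPKM of the family was 97.92 to 101.93 with pectolinarigenin and 90.65 to 94.38 in controls. MAP1LC3B made up 17 to 18.2% of that sum with pectolinarigenin and 11.1 to 11.8% in controls. GABARAPL1 made up 20.6 to 22.3% with pectolinarigenin and 27.1 to 29.2% in controls. GABARAPL2 held 17.8 to 19.5% with pectolinarigenin and 14.5 to 15.4% in controls. These shares are descriptions and were not tested.

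Every cargo receptor passed the test, 4 higher and 1 lower, with a median log2 fold change of 0.27. Of all tested genes 50.6% passed, 25.3% in each direction. Leaving out 1 library at a time left 3 to 4 receptors called higher and 0 to 1 called lower. SQSTM1 (p62, ENSG00000161011, chr5:179806398-179838078) binds ubiquitin and ATG8 proteins, is itself degraded by autophagy and binds KEAP1, the inhibitor of the oxidative stress factor NRF2. It had 40.19, 38.81 and 46.55 FPKM with pectolinarigenin and 18.35, 18.03 and 18.88 FPKM in controls. The lowest treated library was well above the highest control, and the gene was 2.22-fold higher (log2 fold change 1.15, 95% interval 1.00 to 1.30, SE 0.071, edgeR adjusted p = 1.27e-08). By log2 fold change SQSTM1 ranked 216 of the 12829 tested genes. Its value was 1.06 without pectolinarigenin replicate 3, its highest library, and at most 1.20 in any alternative.

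Neighbours of SQSTM1 share part of its exons: MGAT4B on 105 bases (1.37%) and MRNIP on 1582 bases (20.7%). MGAT4B, a glycosyltransferase gene, was higher too (log2 fold change 0.84, SE 0.066, edgeR adjusted p = 1.47e-07). MRNIP was at 0.15 (SE 0.091, edgeR adjusted p = 0.171), at 0.067 without control replicate 1, and called at 0.27 without control replicate 3 (edgeR adjusted p = 0.0277). The part of reads from these neighbours in the SQSTM1 value was not tested.

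OPTN (optineurin, ENSG00000123240, chr10:13099449-13138308), a receptor for mitochondria and bacteria, had 20.28, 21.46 and 19.07 FPKM with pectolinarigenin and 14.60, 14.28 and 13.87 FPKM in controls. Its groups were apart by several FPKM, and it was 1.38-fold higher (log2 fold change 0.47, SE 0.059, edgeR adjusted p = 1.25e-05). TAX1BP1 (ENSG00000106052, chr7:27739331-27844564), which recruits the initiation machinery to protein aggregates, had 22.33, 22.14 and 22.04 FPKM with pectolinarigenin and 18.43, 17.17 and 18.09 FPKM in controls. The treated libraries lay close together above all controls (log2 fold change 0.27, SE 0.054, edgeR adjusted p = 0.000671). CALCOCO2 (NDP52, ENSG00000136436, chr17:48830988-48866522), a receptor for bacteria and mitochondria, had 9.91, 9.98 and 9.61 FPKM with pectolinarigenin and 9.0, 8.39 and 8.62 FPKM in controls.

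The CALCOCO2 groups did not overlap, and its log2 fold change of 0.14 (SE 0.056, edgeR adjusted p = 0.0438) held in 8 of 17 alternatives. Its adjusted p was highest, 0.178, without control replicate 2, and was also above the threshold without pectolinarigenin replicate 1 (0.0623), pectolinarigenin replicate 2 (0.0982) or control replicate 3 (0.135). NBR1 (ENSG00000188554, chr17:43170481-43211689), a ubiquitin-binding receptor that acts with SQSTM1, had 38.79, 39.46 and 35.67 FPKM with pectolinarigenin and 40.68, 40.47 and 40.91 FPKM in controls. All treated libraries were below all controls by a narrow margin, with a log2 fold change of -0.14 (SE 0.054, edgeR adjusted p = 0.0450). The NBR1 call held in 7 of 17 alternatives, and was lost without pectolinarigenin replicate 3 (edgeR adjusted p = 0.0950), control replicate 1 (0.103), control replicate 2 (0.119) or control replicate 3 (0.136).

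The order of the receptors changed with SQSTM1. NBR1 was the most abundant receptor per length in all 3 controls, whereas SQSTM1 was above NBR1 in pectolinarigenin libraries 1 and 3 and below it in library 2. Of the summed receptor FPKM, 131.50 to 132.94 with pectolinarigenin and 98.34 to 101.06 in controls, SQSTM1 made up 29.4 to 35% with pectolinarigenin and 18.2 to 18.8% in controls. NBR1 made up 26.8 to 29.9% with pectolinarigenin and 40.3 to 41.2% in controls. TAX1BP1 and CALCOCO2, though higher, held slightly smaller shares with pectolinarigenin (16.6 to 17% and 7.23 to 7.57%) than in controls (17.5 to 18.2% and 8.53 to 8.91%). OPTN held 14.3 to 16.3% with pectolinarigenin and 13.8 to 14.5% in controls, ranges that overlap.

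**Figure D3:**
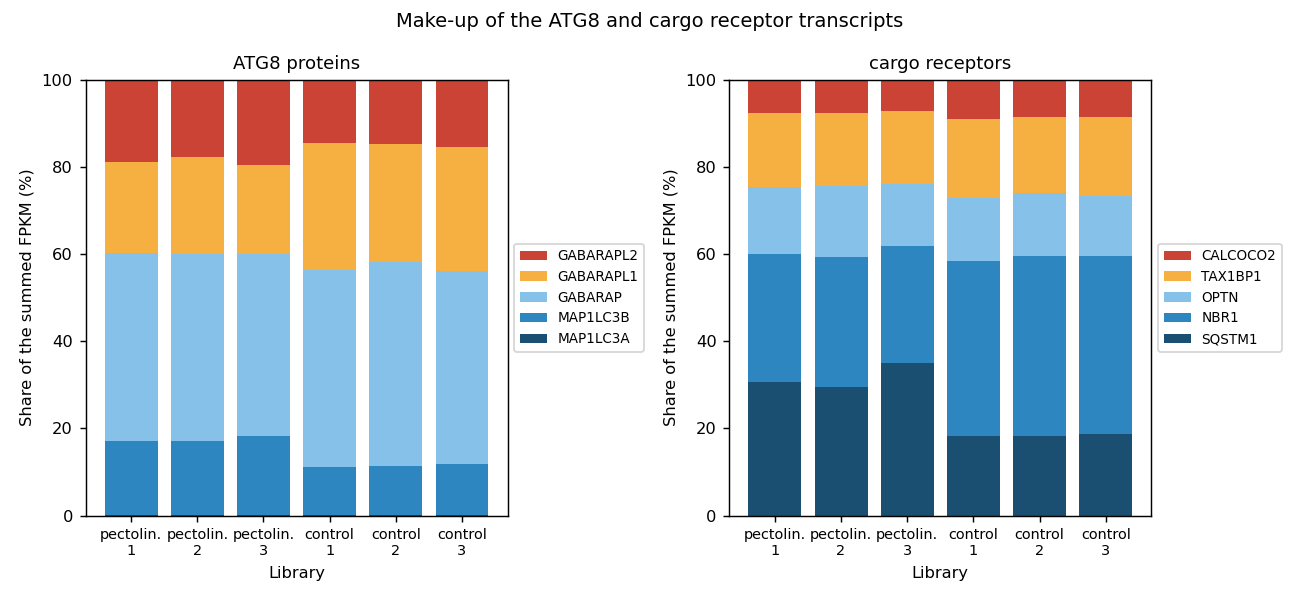
Share (%) of the summed FPKM of the ATG8 family and of the cargo receptors held by each gene, 1 bar per library, pectolinarigenin left of control. The SQSTM1 segment spans 29.4 to 35% of the receptor sum with pectolinarigenin and 18.2 to 18.8% in controls, and the MAP1LC3B segment spans 17 to 18.2% of the ATG8 sum with pectolinarigenin and 11.1 to 11.8% in controls.

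Single libraries followed the group values closely for the genes that moved most. Against the control mean, the 3 pectolinarigenin libraries were at 1.08, 1.03 and 1.32 on the log2 scale for SQSTM1, and at 0.62, 0.67 and 0.76 for MAP1LC3B. For GABARAPL1 they were at -0.40, -0.25 and -0.37. The widest treated spread among the called genes was that of ATG2B, at -0.12, -0.35 and -0.58. The SD of log2 values was larger with pectolinarigenin than in controls for 20 of the 34 genes (58.8%) and for 65.1% of all tested genes.

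**Figure D4:**
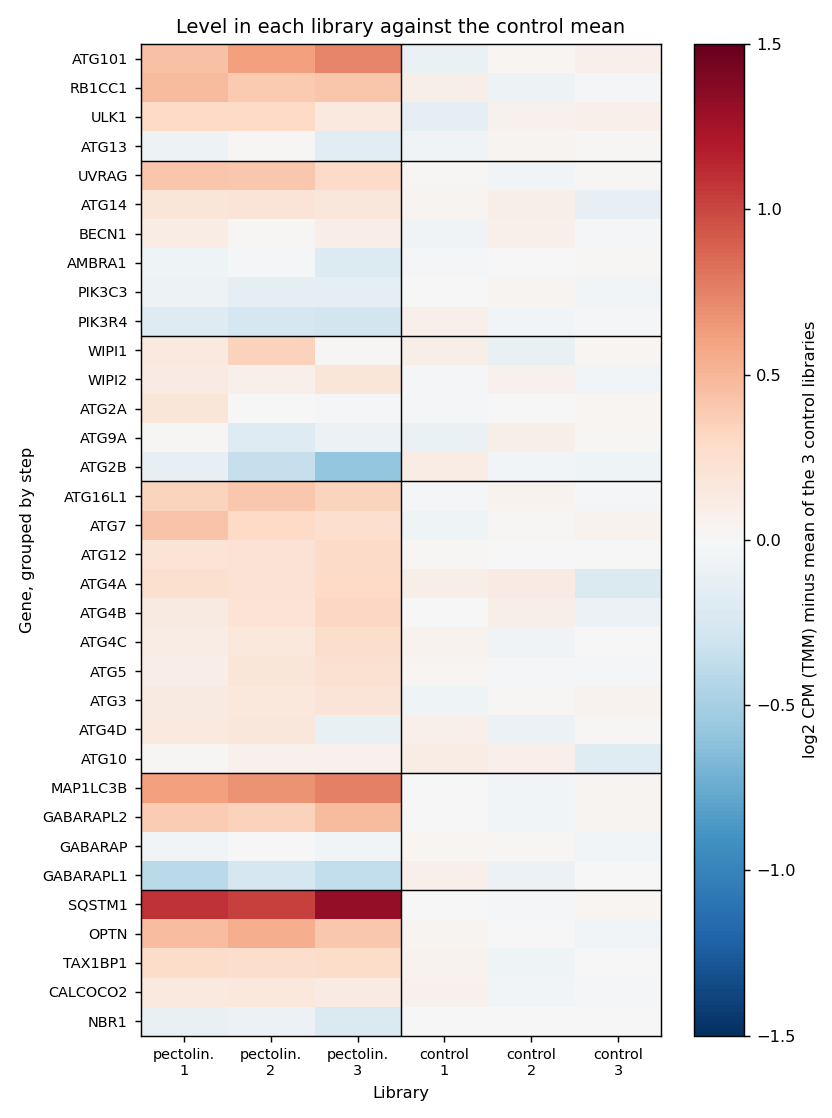
Log2 CPM of each tested autophagy gene in each library minus the mean of the 3 control libraries, pectolinarigenin columns left of control columns, genes grouped by role. SQSTM1 and MAP1LC3B are above the control mean by at least 0.62 in every pectolinarigenin library, and ATG2B falls by 0.12 to 0.58.

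Other genes of the pathway were read from 5 related lists with 79 genes, of which 73 were tested. Of these 22 were higher (30.1%) and 16 were lower (21.9%), with a median log2 fold change of 0.072, where 25.3% of all tested genes were called in each direction. Core factors outside the 36 genes had 6 of 13 tested higher and 3 lower. VMP1, an endoplasmic reticulum scramblase needed for autophagosome formation, was at 41.5 ± 1.4 FPKM with pectolinarigenin and 26.8 ± 0.36 FPKM in controls (SD, n = 3 each; log2 fold change 0.59, edgeR adjusted p = 5.94e-07). WDR45 (WIPI4), which binds ATG2 proteins, was at 11.6 ± 0.29 FPKM with pectolinarigenin and 6.79 ± 0.39 FPKM in controls (SD, n = 3 each; log2 fold change 0.73, edgeR adjusted p = 8.29e-07). Lower were TP53INP2 (log2 fold change -0.77, SE 0.090), an ATG8-binding protein, and TMEM41B (-0.36, SE 0.058), a scramblase that acts with VMP1.

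Upstream kinases and nutrient sensors had 7 of 18 tested higher and 5 lower. DDIT4 (REDD1), an inhibitor of mTORC1 signalling, had 48.08, 43.95 and 72.48 FPKM with pectolinarigenin and 23.89, 24.98 and 25.73 FPKM in controls. Its treated libraries were spread widely, all above the controls (log2 fold change 1.11, SE 0.14, edgeR adjusted p = 1.26e-05), and the value was 0.85 when pectolinarigenin replicate 3 was left out. SESN2, a leucine sensor, was higher by 0.51 on the log2 scale (SE 0.078). PRKAB2, a regulatory subunit of AMP-activated protein kinase, was at 21.0 ± 1.7 FPKM with pectolinarigenin and 35.9 ± 1.4 FPKM in controls (SD, n = 3 each; log2 fold change -0.81, edgeR adjusted p = 1.43e-07). PRKAA1, a catalytic subunit of the same kinase, was at -0.30 (SE 0.053, edgeR adjusted p = 0.000324).

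Ubiquitin and KEAP1 partners of the receptors had 4 of 11 higher and 3 lower, and 1 lower without control replicate 1, without control replicate 3, in either limma fit on FPKM or with library totals only. NFE2L2, which encodes NRF2, was higher by 0.42 on the log2 scale (SE 0.054), whereas KEAP1 was at 0.16 (edgeR adjusted p = 0.0528). The kinases MAP2K5 and PRKCI were lower, at -0.47 (SE 0.086) and -0.17 (SE 0.055). The PRKCI call was among those lost without control replicate 1 or 3. Receptors for organelles and other cargo had 2 of 15 tested higher, SEC62 (0.39, SE 0.053) for endoplasmic reticulum and TOLLIP (0.27, SE 0.055) for aggregates, and 3 lower, led by WDFY3 (-0.73, SE 0.10), a scaffold of aggregate clearance, and NCOA4 (-0.30, SE 0.058), the ferritin receptor. The higher count was 4 without pectolinarigenin replicate 1 and with library totals only.

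Genes of autophagosome fusion with the lysosome had 3 of 16 higher and 2 lower, and 11 that did not pass. The higher ones with the smallest p were VPS18 (0.50, SE 0.074), a subunit of the tethering complexes, and YKT6 (0.32, SE 0.065), a fusion protein. EPG5, a tether, was at -0.30 (SE 0.085) and at -0.20 without pectolinarigenin replicate 3, with the call kept. BORCS5, part of the complex that positions lysosomes, was at -0.41 (SE 0.12) and at -0.26 in limma on log2(FPKM + 1), where neither it nor EPG5 passed (adjusted p = 0.0642 and 0.0780).

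**Figure D5:**
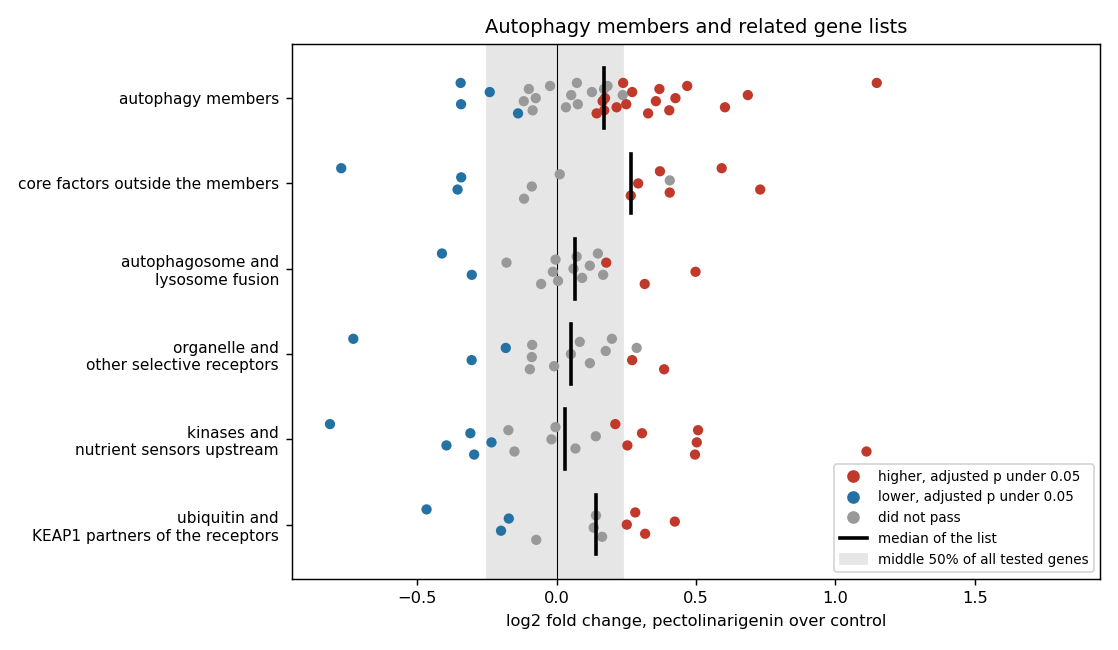
Log2 fold change (pectolinarigenin over control) of each tested gene in the autophagy set and in the 5 related lists, with a black bar at each list's median and a grey band for the middle 50% of all tested genes (-0.25 to 0.24). The median is 0.17 for the autophagy set, 0.27 for the other core factors and between 0.032 and 0.14 for the other 4 lists.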

How the data were processed

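RNA was sequenced from 6 Huh-7 libraries, 3 with pectolinarigenin and 3 with DMSO, grouped by their titles and treatment labels. Per the labels' protocols, TRIzol-extracted total RNA went into VAHTS Universal V8 libraries. The authors deposited whole, unnormalized counts per gene, and FPKM values. Over 1846 genes above 20 FPKM in all 6 libraries, the deposited FPKM matched counts scaled by library total and 1 gene length (largest coefficient of variation 0.000189). cutadapt 1.9.1, HISAT2 2.0.1, HTSeq 0.6.1 and GRCh38 are named, per the submitters' processing notes. What each tool did, the annotation release and the strand setting are not stated in these sources.

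Genes with a mean FPKM of at least 1 over the 6 libraries (12829) were tested on counts in edgeR 4.0.16 under R 4.3.3 (quasi-likelihood F test) with TMM factors and no covariate, 2-sided. P-values were Benjamini-Hochberg adjusted over these genes with a threshold of 0.05, and standard errors and 95% intervals came from the F statistic. The fit was tested on simulated data with few changed genes, each by more than the median change of the genes called here. Smaller changes, and changes in as many genes as here, were thus not covered. The biological coefficient of variation was 0.0614. No 2 libraries of a group agreed within sampling noise: chi-square divided by its degrees of freedom ran from 5.40 to 13.9 among pectolinarigenin libraries and from 1.61 to 3.16 among controls. The 95% intervals include the scatter among libraries, whereas the 3-count floor covers counting error only.

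The 36 genes and the related lists were chosen with earlier results of these data known. Values per library are given for every called ATG8 gene and receptor, for up to 3 called genes with the smallest p in each other role and for called genes with an absolute log2 fold change of at least 0.5. In each related list up to 2 called genes per direction are named. A gene that this rule names is not reported here. GABARAP, the genes that were not tested, KEAP1, DDIT4 per library and the overlapping or copied genes were added after their values were seen. Alternatives were DESeq2 1.42.0, limma 3.58.1 (voom, log2(FPKM + 1), log2(FPKM + 0.1)), other scalings, other expression filters, a replicate block and leaving out each library. Coordinates are those of GENCODE 29 on GRCh38.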

Additional observations from a re-analysis of the deposited data

How the results depend on the processing

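Of the 17 alternatives, none moved the log2 fold change of a called autophagy gene by over 1.5 times. MAP1LC3B ran from 0.65 to 0.72 and SQSTM1 from 1.06 to 1.20, each called in all 17. Genes called lower numbered 2 of the 34 in limma on log2(FPKM + 1) and on log2(FPKM + 0.1), against 4. With a mean FPKM of at least 5, fewer genes were tested and 4099 were called, 2050 higher and 2049 lower. Sign changes occurred among genes that did not pass: ATG2A (-0.015 to 0.092) and ATG10 (-0.046 to 0.089) when single libraries were left out, negative for ATG2A without pectolinarigenin replicate 1 and for ATG10 without control replicate 3, and GABARAP at 0.015 in both limma fits on FPKM and 0.014 with library totals only. Leaving out 1 library at a time left 16 to 20 autophagy genes called (13 to 17 higher, 3 to 4 lower), 5292 to 6516 genes in all (2628 to 3251 higher, 2664 to 3265 lower) and 32 to 40 related genes. Autophagy calls higher and lower were 14 and 4 in DESeq2 and 20 and 2 in limma on FPKM. They were 19 and 3 with library totals only and 12 and 4 with a mean FPKM of at least 5. Calls over all genes were 3243 higher and 3243 lower in the main test. They were 3503 and 2590 in limma on log2(FPKM + 1), 3484 and 2561 on log2(FPKM + 0.1) and 3723 and 2821 with library totals only. In these settings the calls over all genes thus leaned higher too. The part of this lean in the autophagy counts was not tested. Same-numbered libraries did not deviate together (correlations of deviations -0.0047, 0.024 and -0.011). Whether they were made in pairs is not stated in the labels. These correlations cannot decide it, since a pairing with small shared effects would not show in them. With a replicate block 19 autophagy genes were called, 16 higher and 3 lower, where CALCOCO2 (edgeR adjusted p = 0.0569) and NBR1 (0.0505) lost the call. DESeq2 did not call ATG14 (adjusted p = 0.0855), ATG5 (0.0749) or CALCOCO2 (0.0894). With no expression filter edgeR did not call ATG14 (0.0510), ATG5 (0.0503), NBR1 (0.174) or CALCOCO2 (0.0727). The 8 calls lost in at least 1 alternative were those of ULK1, ATG14, ATG2B, ATG3, ATG4B, ATG5, NBR1 and CALCOCO2, with absolute log2 fold changes of at most 0.34. Depth limits ULK2 and MAP1LC3A, which had few counts.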
